A study of Mus musculus with 30 samples.

Results

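The blood response to oleic acid was examined 1.5 h after injection, by setting 3 arrays of mice given oleic acid against 3 arrays of mice given physiological serum. These 6 arrays, of 30 in the series, were taken by their titles. All mice were female C57BL/6 animals aged 6 weeks under xylazine and ketamine anaesthesia, and each received 200 µl through the tail vein, either of the serum or of oleic acid at 1.2 µl per g of body weight. Blood was taken by exsanguination into EDTA, and peripheral blood mononuclear cells (PBMC) were collected on a Ficoll gradient of density 1.084, so the controls share the anaesthesia, the injection and the cell separation with the treated mice. There were no untreated mice among these groups. RNA was labelled with the dye Cy3 and hybridised to Agilent mouse arrays of 60-base probes. The design text counts as many mice as there are arrays, and each array was taken as 1 mouse.

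Oleic acid given into a vein injures the lung capillaries within hours and is used to model acute lung injury. PBMC are mostly T cells, B cells, natural killer (NK) cells and monocytes, and blood layered on a gradient also leaves platelets and some red cells among them. Platelets have no nucleus but carry messenger RNA made in the megakaryocyte, so their transcripts report on how many platelets, or how much platelet RNA, came with the cells. Leukocytes answer injury within minutes with immediate early transcription factors such as the Fos, Egr and Atf genes, and then with targets of NF-kB, many of which are its own inhibitors. In bulk RNA, a lower or higher share of a cell type and a lower or higher RNA content per cell cannot be told apart.

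A level is the log2 processed signal minus the 75th percentile of that array, and a difference is the mean level after oleic acid minus the mean level after serum, with the standard error (SE) of the limma fit. A probe was kept when 3 or more of the 6 arrays measured it well above background, which left 26121 probes. They represented 19246 genes or unnamed transcripts, of which 13208 had a symbol. The 75th percentile of the signal ran from 54.0 to 152 over the 6 arrays, 38.4% to 56.2% of probes were well above background, and pairs of arrays correlated at 0.877 to 0.973. Serum replicate 3 had the lowest median correlation with the others (0.924). The 6 arrays lay on 4 slides of 1 scan day, and slides 3 and 4 each held 1 array of either group, oleic acid replicate 2 with serum replicate 2 and oleic acid replicate 3 with serum replicate 3. The mean signal of probes for long intergenic RNAs, against probes detected on all 30 arrays, was -5.46, -5.10 and -4.98 after serum and -5.18, -6.13 and -5.95 after oleic acid. Its part in the differences between groups was not tested beyond a fit that holds it as a covariate.

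No gene passed an adjusted p of 0.05 in limma's fit (0 of 19246, 0%), and the lowest adjusted p was 0.145. Without adjustment, 1871 genes (9.72%) had a p under 0.05, 900 higher (4.68%) and 971 lower (5.05%) after oleic acid. The 2 groups of 3 did not overlap for 28% of genes, 3963 that were higher (20.6%) and 1430 that were lower (7.43%). The mean was higher after oleic acid for 61.2% and lower for 38.8% of all genes, and higher for 69.8% and lower for 30.2% of genes with a symbol. Among genes with a symbol, 25.3% were higher without overlap, 5.44% lower without overlap, 5.5% higher at an unadjusted p under 0.05 and 3.48% lower at that p. The median difference was 0.17 over all genes and 0.24 over genes with a symbol, so the lists below are read against that shift and not against 0. It depends on the slide pair, at 0.14 within slide 3 and 0.50 within slide 4 over genes with a symbol. It also depends on the scaling. When arrays were scaled to the median of the probes that every array detected, it was -0.05 over all genes, and the non-overlapping genes were 2139 higher and 2545 lower. An exact permutation test of 3 against 3 mice cannot go below a two-sided p of 0.1, so none was run on single genes.

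The cells carried the markers of their label. All 20 T cell genes, all 19 B cell genes on the array, 15 of 17 NK and cytotoxic genes and all 12 classical monocyte genes were detected. So were all 18 neutrophil genes, 21 of the 23 erythroid genes on the array and nearly all platelet genes, which are markers of cells outside the PBMC.

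Platelet genes stood highest of the 46 lists examined. Of 22 genes for platelet surface receptors, 21 were detected, and all 21 had a higher mean after oleic acid, with a median difference of 1.75. For 16 of them the 2 groups did not overlap (76.2%, against 25.3% of genes with a symbol that were higher without overlap). An unadjusted p under 0.05 was reached by 18 (85.7%, against 5.5% higher at that p), although no member passed the adjusted threshold. The receptor that was not detected, F2rl3, encodes a thrombin receptor. Relative to the median of all genes, this list lay between 1.42 and 1.72 over 5 scalings. No detected member of this list was above background after oleic acid alone. The mean log2 level of the list was 2.83, 2.30 and 1.95 after serum and 3.28, 4.98 and 3.55 after oleic acid.

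The fibrinogen receptor and the von Willebrand factor receptor are the adhesion complexes by which platelets bind each other and the vessel wall. Itgb3, the beta chain of the fibrinogen receptor, was measured by a probe at chr11:104531672-104531731 (mm9, plus strand) and had log2 levels of 5.66, 5.22 and 4.37 in serum replicates 1, 2 and 3 and of 6.51, 7.84 and 6.79 in oleic acid replicates 1, 2 and 3. The groups did not overlap, and the difference was 1.96 ± 0.56 (SE, n = 3 per group, 3.9-fold, limma adjusted p = 0.481). Its partner chain Itga2b had levels of 4.99, 3.08 and 2.49 after serum and 4.26, 7.41 and 4.90 after oleic acid. Here serum replicate 1 lay above both oleic acid replicates 1 and 3, the difference of 2.00 ± 0.84 rested on oleic acid replicate 2, and it was 1.06 without that array. Gp1ba, the chain of the von Willebrand factor receptor that binds the ligand, had levels of 1.74, 1.1 and 0.49 after serum and 2.66, 4.02 and 2.64 after oleic acid, a difference of 2.00 ± 0.61 with no overlap. With the intergenic signal as a covariate, Itga2b differed by 1.29 and Gp1ba by 1.30. The other chains of that complex, Gp9 and Gp5, differed by 1.88 ± 0.62 and 1.96 ± 0.72, the latter with overlap.

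Receptors for soluble agonists and for collagen were also in the list. P2ry12, the ADP receptor that clopidogrel blocks, had levels of 1.76, 1.49 and 1.02 after serum and 2.74, 4.76 and 3.02 after oleic acid, a difference of 2.08 ± 0.66. The collagen receptor Gp6 differed by 1.66 ± 0.56, the podoplanin receptor Clec1b by 1.91 ± 0.64 and the granule membrane receptor Treml1 by 1.76 ± 0.61. For these 4 genes every oleic acid array was above every serum array. The ATP-gated channel P2rx1 differed by 1.28 ± 0.49 and the tetraspanin Cd9, which other blood cells also carry, by 1.57 ± 0.65. Selp, the P-selectin that activated platelets expose, differed by 0.96 ± 0.52, and its groups overlapped.

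Granule proteins and the platelet cytoskeleton made up a list of 20 genes, all detected. Of these, 18 had a higher mean after oleic acid, 16 without overlap (80%, against 25.3% of genes with a symbol). An unadjusted p under 0.05 was reached by 16 (80%, against 5.5%), and the median difference was 1.72. Relative to the median of all genes, this list lay between 1.55 and 1.79 over 5 scalings. Pf4, the chemokine platelet factor 4, had levels of 7.70, 7.59 and 6.95 after serum and 8.77, 9.87 and 8.89 after oleic acid, a difference of 1.77 ± 0.59 (3.4-fold). Ppbp, the precursor of the neutrophil-attracting chemokine NAP-2, had levels of 6.96, 6.63 and 5.85 and 7.40, 9.23 and 7.83, a difference of 1.67 ± 0.60, or 1.09 with the intergenic signal as a covariate. In both genes oleic acid replicate 2 was the highest array and serum replicate 3 the lowest. The adhesive proteins Vwf and Thbs1 differed by 1.98 ± 0.61 and 2.05 ± 0.61, and Mmrn1, which binds factor V in the granule, by 2.01 ± 0.69. Among cytoskeletal and signalling parts, Myl9 (myosin light chain) differed by 1.73 ± 0.56, Gng11 (a G protein subunit) by 1.61 ± 0.63 and Tubb1 (the platelet beta tubulin) by 1.89 ± 0.72, the last with overlap. The 2 members with a lower mean were Pdgfb, a growth factor chain, at -0.35 ± 0.34 and Sparc, a matrix protein, at -0.19 ± 0.52, both with overlap.

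**Figure D1:**
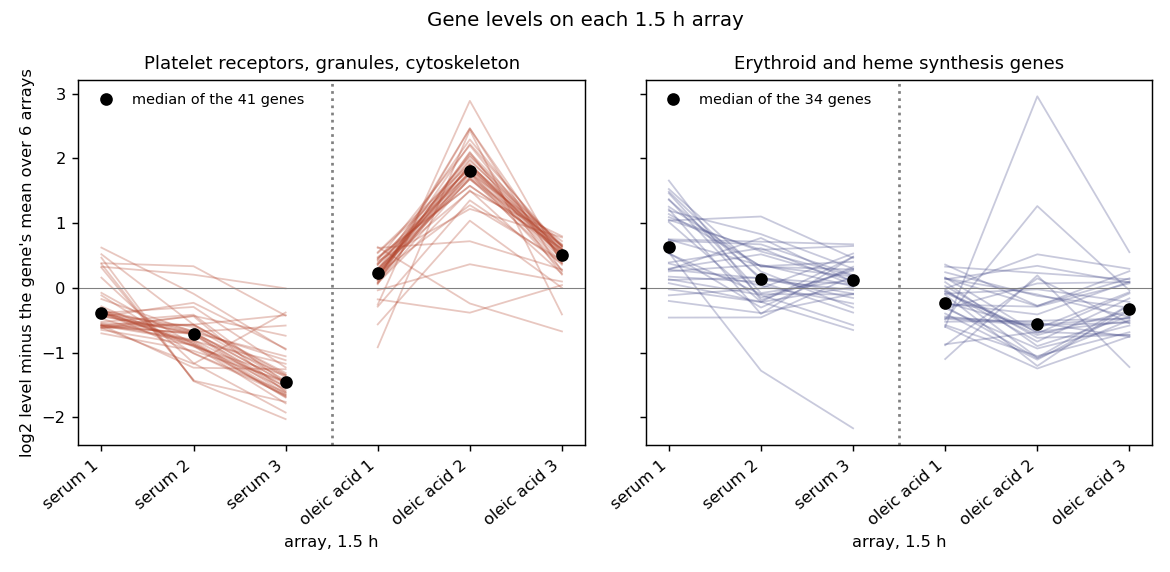
Log2 level minus the gene's own mean over the 6 arrays of 1.5 h (vertical axis) on each array (horizontal axis), for 41 platelet genes (left) and 34 erythroid and heme synthesis genes (right); each line is a gene within a treatment group, and black points are medians over genes. The platelet genes were highest on oleic acid replicate 2 and lowest on serum replicate 3, and most erythroid genes were lower on the oleic acid arrays.

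Promoters of 6 platelet genes are shown so that the receptors and granule proteins described above can be set beside each other in sequence. Each is the RefSeq promoter of build GRCm38.p6 from 250 bases before to 30 bases after the annotated start, 5′ to 3′ on the gene's strand, with capitals for matches to the motifs searched on both strands: AGATAA (bound by GATA factors), GGAAGT (Ets factors), TGANTCA (AP-1), TGACGTCA (the cyclic AMP response element), the NF-kB motif (GGG, any 2 bases, then TTTCC) and the CArG box (serum response factor). The motifs do not overlap each other in these windows.
Gp5, chr16:30310752-30311031 (-): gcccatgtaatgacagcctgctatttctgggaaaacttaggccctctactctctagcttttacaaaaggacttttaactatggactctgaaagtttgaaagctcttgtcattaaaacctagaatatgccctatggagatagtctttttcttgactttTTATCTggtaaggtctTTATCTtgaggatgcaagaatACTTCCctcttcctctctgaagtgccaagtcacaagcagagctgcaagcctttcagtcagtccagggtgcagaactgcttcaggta
Gp6, chr7:4397715-4397994 (-): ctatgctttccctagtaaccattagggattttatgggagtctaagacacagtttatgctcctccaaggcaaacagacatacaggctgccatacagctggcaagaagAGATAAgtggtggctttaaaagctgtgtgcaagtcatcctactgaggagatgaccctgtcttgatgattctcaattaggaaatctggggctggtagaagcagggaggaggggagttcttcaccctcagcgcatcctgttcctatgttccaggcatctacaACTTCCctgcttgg
P2rx1, chr11:72998895-72999174 (+): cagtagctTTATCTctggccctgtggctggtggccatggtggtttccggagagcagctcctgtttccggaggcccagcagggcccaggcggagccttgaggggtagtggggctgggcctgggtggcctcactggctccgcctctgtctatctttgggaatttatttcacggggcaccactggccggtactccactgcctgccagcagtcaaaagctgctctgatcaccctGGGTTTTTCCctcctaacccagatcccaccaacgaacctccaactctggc
Itga2b, chr11:102469854-102470133 (-): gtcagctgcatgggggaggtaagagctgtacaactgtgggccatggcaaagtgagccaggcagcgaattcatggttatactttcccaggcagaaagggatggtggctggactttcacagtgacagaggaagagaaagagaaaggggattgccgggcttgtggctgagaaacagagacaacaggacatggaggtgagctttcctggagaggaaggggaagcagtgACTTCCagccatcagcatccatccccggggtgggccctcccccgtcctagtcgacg
Pf4, chr5:90772185-90772464 (+): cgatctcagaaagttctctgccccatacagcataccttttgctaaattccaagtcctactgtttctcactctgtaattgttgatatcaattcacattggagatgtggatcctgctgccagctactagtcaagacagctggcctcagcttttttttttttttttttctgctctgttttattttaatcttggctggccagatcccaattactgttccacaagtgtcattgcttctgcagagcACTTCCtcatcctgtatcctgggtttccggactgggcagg
Ppbp, chr5:90768268-90768547 (+): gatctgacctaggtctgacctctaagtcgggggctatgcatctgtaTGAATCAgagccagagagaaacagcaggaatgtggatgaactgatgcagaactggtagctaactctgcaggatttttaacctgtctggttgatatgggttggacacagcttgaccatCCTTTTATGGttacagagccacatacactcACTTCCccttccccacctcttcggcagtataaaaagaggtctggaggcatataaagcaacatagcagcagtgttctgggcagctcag

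GATA and Ets factors are the classical regulators of megakaryocyte genes. Gp5 held AGATAA at -93 and -77, both on the opposite strand, and an Ets motif at -56. Gp6 held it at -144 and P2rx1 at -242, while in Pf4 it lay at 37, beyond the stretch printed. Over the full windows of 300 bases, AGATAA was found for 6 of the 17 detected platelet receptor genes with a promoter in the table (35.3%) and for 1 of 14 granule and cytoskeleton genes (7.14%). The share was 8.85% of 10402 detected genes with a promoter and 12.7% of all 27025 genes of the table. GGAAGT was found for 6 of 17 receptor genes (35.3%) and 6 of 14 granule genes (42.9%), against 32.5% of detected genes and 26.5% of all. These matches are descriptions of the letters only.

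Transcription factors of the megakaryocyte lineage were higher after oleic acid too, by a smaller median of 0.75 over 12 detected genes. Of these, 11 were higher and 9 without overlap (75%, against 25.3% of genes with a symbol). Gata1, the master regulator that megakaryocytes share with red cell precursors, had levels of 2.31, 1.92 and 1.04 after serum and 2.85, 4.02 and 3.04 after oleic acid, a difference of 1.54 ± 0.51 with no overlap. Tal1, its partner, differed by 1.72 ± 0.66, Gfi1b, a repressor of the lineage, by 1.22 ± 0.54 and Fli1, the Ets factor, by 0.98 ± 0.43. Nfe2, which drives platelet release, differed by 0.75 ± 0.45.

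The signalling and secretion list had a median of 0.57 over 17 genes, of which 12 were higher without overlap (70.6%, against 25.3% of genes with a symbol). Many of its members, such as the kinase Syk, are also used by leukocytes, and its largest difference was in Rab27b, the Rab protein of dense granules, at 1.72 ± 0.65. Among the rest was Tln1, the talin that activates integrins, at 0.97 ± 0.43. The serotonin transporter Slc6a4, by which platelets load serotonin, had levels of 1.09, 0.63 and -0.48 after serum and 1.88, 3.71 and 2.03 after oleic acid, a difference of 2.13 ± 0.60 with no overlap. Of the 15 detected genes of eicosanoid synthesis, 9 had a higher mean, 8 without overlap (53.3%, against 25.3% of genes with a symbol), and 6 a lower mean, none without overlap and the lowest at -2.19. The median was 0.52. Higher members included Alox12, the platelet 12-lipoxygenase, at 1.85 ± 0.62, Ptgs1, cyclooxygenase 1, at 1.71 ± 0.62, Tbxas1, thromboxane synthase, at 1.43 ± 0.60, and Pla2g4a, the phospholipase that frees arachidonic acid, at 1.56 ± 0.68. The 2 detected probes of Tbxas1 differed in sign (1.43 and -1.74), and their median was -0.15. Ptgs2, the inducible cyclooxygenase, had levels of -1.1, -2.33 and -0.24 after serum and 0.82, 0.23 and 0.70 after oleic acid, with a wide SE (1.80 ± 0.97).

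By the mean of the 2 main platelet lists, the 6 arrays ran from serum replicate 3 (2.66) through serum replicates 2 (3.11) and 1 (3.55) to oleic acid replicates 1 (4.04), 3 (4.27) and 2 (5.54). A fit with this platelet level as a covariate was added after the data were seen. The level is itself measured on these arrays, comes from the platelet lists and separates the groups completely, so it can take up any group difference. The eicosanoid median was -0.17 with the platelet level and 0.21 with the intergenic signal as a covariate. Oleic acid replicate 2 stood farther from the other treated mice than the lowest of them stood from serum replicate 1. Without oleic acid replicate 2 the medians were 1.24 for the receptors and 1.30 for the granule genes. They were 2.77 and 2.38 within slide 3 and 2.06 and 1.99 within slide 4, so the direction held in both slide pairs. No platelet counts of these mice were used here, and the part of platelet number in these differences was not tested.

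Immediate early genes were examined because they mark cells activated shortly before sampling. Of 26 detected members, 24 had a higher mean after oleic acid, 9 without overlap (34.6%, against 25.3% of genes with a symbol) and 4 with an unadjusted p under 0.05 (15.4%, against 5.5%), and the median difference was 0.46. The list median was 0.03 with the platelet level and 0.16 with the intergenic signal as a covariate. Atf3, a stress-induced repressor of inflammatory genes, was measured by a probe at chr1:192994547-192994606 on the minus strand of mm9, and had levels of 0.43, -0.43 and -0.07 after serum and 1.74, 2.09 and 1.78 after oleic acid. The 3 treated mice lay close together and every one was above every control. The difference was 1.89 ± 0.45 (3.72-fold, limma adjusted p = 0.481), and it was 2.52 within slide 3 and 1.85 within slide 4. In the fit with the platelet level as a covariate it was 1.38.

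Maff, a small Maf protein that pairs with CNC factors at antioxidant elements, was well above background on all 3 oleic acid arrays and on no serum array. Its levels were -3.37, -3.58 and -3.13 after serum and -1.36, -1.79 and -1.47 after oleic acid. In the main processing it was at least 2.24-fold higher by the bound that background allows. Over the alternative settings its smallest log2 difference was 0.16. Maff passed the filter on dim probes through the oleic acid arrays alone. Egr2, a zinc finger factor of activated lymphocytes and monocytes, had levels of -2.60, -4.30 and -2.37 and -1.67, -1.35 and -1.26, a difference of 1.66 ± 0.57. It was well above background on 1 serum and 2 oleic acid arrays. Serum replicate 2 was far the lowest of its group, the difference without it was 1.05, and with background correction by normexp (offset 50) it was 0.24. Csrnp1, a nuclear protein induced by growth signals, and Dusp2, a phosphatase of MAP kinases in leukocytes, were bright and differed by 0.88 ± 0.41 and 0.93 ± 0.45, both with no overlap. Fos itself differed by 0.63 ± 0.65 with overlap.

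The inhibitors that NF-kB induces against itself formed a list of 17 detected genes, 15 of them higher and 7 without overlap (41.2%, against 25.3% of genes with a symbol), with a median of 0.35. That median was 0.0031 with the platelet level and 0.14 with the intergenic signal as a covariate, and 0.58 without serum replicate 1. Tnfaip3, the ubiquitin-editing enzyme A20, had levels of 1.97, 2.02 and 1.87 after serum, nearly equal in the 3 mice, and of 3.22, 3.40 and 3.85 after oleic acid. Its difference was 1.53 ± 0.47 (2.9-fold, adjusted p = 0.481), 1.38 within slide 3 and 1.97 within slide 4, and 0.99 with the platelet level or 1.00 with the intergenic signal as a covariate. Socs1, an inhibitor of cytokine receptor kinases, had levels of 1.51, 1.56 and 1.54 and 2.31, 2.98 and 2.22, a difference of 0.97 ± 0.38, or 0.55 with the intergenic covariate. Nfkbia, the inhibitor that holds NF-kB in the cytoplasm, differed by 0.59 ± 0.37, with oleic acid replicate 2 only 0.05 above the serum array of its slide.

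Promoters of these activation genes are shown for comparison with the platelet ones, with the same windows, build and capitals.
Tnfaip3, chr10:19015381-19015660 (-): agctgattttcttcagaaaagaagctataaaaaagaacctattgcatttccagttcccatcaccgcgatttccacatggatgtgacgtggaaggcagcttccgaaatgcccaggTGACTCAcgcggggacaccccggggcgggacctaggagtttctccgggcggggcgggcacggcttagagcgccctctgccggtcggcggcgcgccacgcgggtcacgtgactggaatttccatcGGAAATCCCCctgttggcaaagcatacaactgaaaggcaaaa
Nfkbia, chr12:55492618-55492897 (-): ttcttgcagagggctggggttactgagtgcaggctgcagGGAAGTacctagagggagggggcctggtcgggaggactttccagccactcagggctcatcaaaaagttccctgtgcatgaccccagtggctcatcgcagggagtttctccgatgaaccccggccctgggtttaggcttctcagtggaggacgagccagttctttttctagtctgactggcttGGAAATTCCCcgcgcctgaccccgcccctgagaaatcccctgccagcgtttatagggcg
Maff, chr15:79347270-79347549 (+): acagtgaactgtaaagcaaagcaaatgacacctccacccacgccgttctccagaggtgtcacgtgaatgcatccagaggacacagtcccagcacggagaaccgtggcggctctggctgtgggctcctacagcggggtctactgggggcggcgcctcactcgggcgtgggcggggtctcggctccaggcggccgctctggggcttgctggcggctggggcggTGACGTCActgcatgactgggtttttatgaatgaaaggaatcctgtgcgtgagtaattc
Egr2, chr10:67537619-67537898 (+): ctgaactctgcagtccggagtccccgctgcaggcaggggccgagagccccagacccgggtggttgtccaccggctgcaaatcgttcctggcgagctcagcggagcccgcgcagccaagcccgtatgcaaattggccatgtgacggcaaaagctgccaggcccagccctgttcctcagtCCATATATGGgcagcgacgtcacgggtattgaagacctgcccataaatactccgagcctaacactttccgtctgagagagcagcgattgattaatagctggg

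The Tnfaip3 window held an NF-kB motif at -12 and an AP-1 motif at -136, and the Nfkbia window an NF-kB motif at -29. The NF-kB motif was found for 4 of the 14 feedback genes with a promoter (28.6%), against 2.05% of detected genes and 1.89% of all genes. The Maff window, the second of 3 annotated starts, held the cyclic AMP response element at -29, a motif of 3 of 22 immediate early genes (13.6%) and of 3.33% of detected genes. The CArG box stood at -72 in the third of 5 windows of Egr2. It was found for 4 of 22 immediate early genes (18.2%) and for 1.61% of detected genes. Members of both lists are classical targets of these factors, so the lists were not chosen independently of the motifs.

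Of 16 chemokine genes, 11 were detected, and 4 were higher without overlap (36.4%, against 25.3% of genes with a symbol). The median was 0.32, 0.56 without serum replicate 3 and 0.01 and 0.04 with the platelet and intergenic covariates. Ccl2, the main attractant of classical monocytes, had levels of -1.79, -0.92 and -0.89 after serum and 0.62, 0.26 and 0.70 after oleic acid. Every treated mouse was above every control, and the difference was 1.72 ± 0.47 (3.3-fold, adjusted p = 0.481). It was 0.86 with normexp, and 1.64 with the platelet level as a covariate. Cxcl10, an interferon-induced attractant of T cells, had levels of -2.16, -1.67 and -1.34 and -0.70, 0.72 and -0.87, with oleic acid replicate 2 well above the rest of its group. Its difference of 1.44 ± 0.57 was 0.94 without that array and 0.48 with normexp. Ccl3, a monocyte and neutrophil attractant, differed by 1.24 ± 0.52, or 0.72 with normexp. The neutrophil attractant Cxcl2 differed by 0.77 ± 0.87 with overlap, and in opposite directions within the slides (-1.21 within slide 3 and 1.5 within slide 4). Cytokine genes as a list had a median of 0.01 over 12 detected members (-0.10 to 0.40 leaving out 1 array, highest without serum replicate 3), and Il1b differed by 0.56 ± 0.92.

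**Figure D2:**
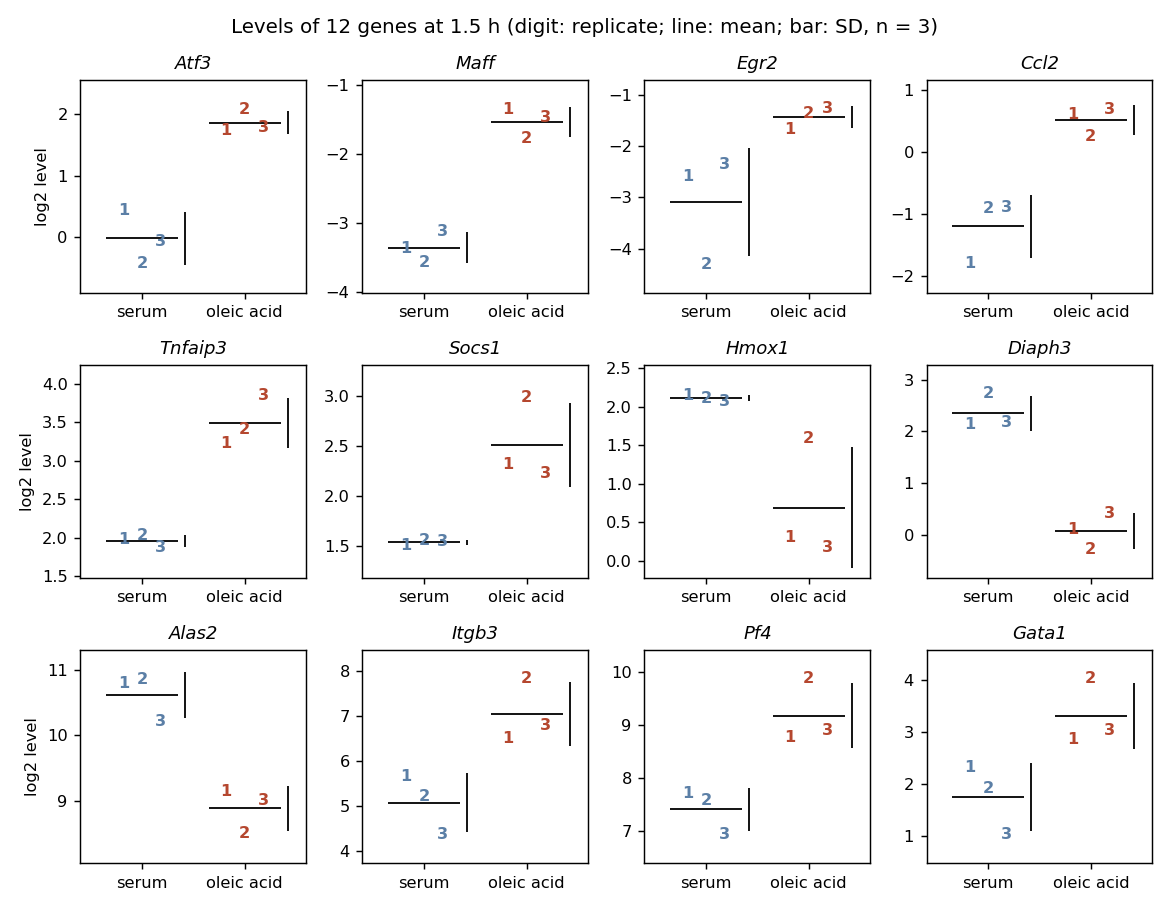
Log2 levels (vertical axis) of 12 genes on the 3 serum and the 3 oleic acid arrays of 1.5 h (horizontal axis); digits are replicates, horizontal lines are means and vertical bars are SDs. In Atf3, Ccl2 and Tnfaip3 every treated array lies above every control. The treated group is the tighter one in Atf3 and Ccl2, and the serum group is in Tnfaip3. In Itgb3, Pf4 and Gata1 oleic acid replicate 2 stands above its group and serum replicate 3 below. Maff was above background on the oleic acid arrays alone.

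Most red cell genes had lower means after oleic acid. Of 21 detected genes of the erythroid list, 18 were lower and 12 lower without overlap (57.1%, against 5.44% of genes with a symbol), with a median difference of -0.86. The list level was 4.54, 3.83 and 3.72 after serum and 3.45, 3.33 and 3.37 after oleic acid. The treated mice were close to each other, and serum replicate 1 was the highest control. The median was -0.56 without that array, -1.06 within slide 3 and -0.45 within slide 4. Relative to the median of all genes, this list lay between -1.03 and -0.70 over 5 scalings. Bpgm, which sets oxygen affinity of hemoglobin, differed by -1.22 ± 0.60 and the mitophagy receptor Bnip3l by -1.06 ± 0.57, both with no overlap. The globin gene Hbb-b2 differed by -0.76 ± 0.43, but it belongs to a family of near-identical globin genes and its value is uncertain. The anion exchanger Slc4a1, a late red cell gene, differed by -0.90 ± 0.87 with overlap. The 3 members with a higher mean, all with overlap, included Sptb, the beta spectrin (1.94 ± 0.79), with levels of -0.89, -2.71 and -3.60 after serum and -2.04, 1.53 and -0.88 after oleic acid and well above background on 1 serum and 2 oleic acid arrays, and the erythropoietin receptor Epor (0.49 ± 0.51).

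The 13 genes of heme synthesis and breakdown had a median of -0.27, with 4 lower without overlap (30.8%, against 5.44% of genes with a symbol). Alas2, the erythroid enzyme that starts heme synthesis, was measured by a probe at chrX:147004993-147005052 (mm9) and had levels of 10.79, 10.85 and 10.21 after serum and 9.15, 8.50 and 9.0 after oleic acid, a difference of -1.73 ± 0.62 (3.33-fold lower, adjusted p = 0.481). Fech, which inserts the iron, differed by -1.54 ± 0.66. Hmox1, the enzyme that degrades heme and is induced in stressed monocytes, had levels of 2.15, 2.11 and 2.07 after serum, nearly equal in the 3 mice, and of 0.30, 1.59 and 0.17 after oleic acid. The difference was -1.42 ± 0.42 (2.68-fold lower, adjusted p = 0.481), but the pair of slide 3 differed by -0.52 and that of slide 4 by -1.90. Its second probe gave -0.92. At 1 h and 3 h the differences of Hmox1 were 0.33 and -0.0035. In the fit with the platelet level as a covariate, the erythroid median was -0.48 and Hmox1 differed by -1.94.

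All 19 detected B cell genes had a higher mean, 13 without overlap (68.4%, against 25.3% of genes with a symbol), with a median of 0.62, between 0.40 and 0.78 over the scalings tried. Spib, an Ets factor of B cells and plasmacytoid dendritic cells, had levels of 2.93, 2.48 and 2.80 after serum and 3.62, 3.73 and 4.16 after oleic acid, a difference of 1.1 ± 0.44, or 0.61 with the intergenic covariate. The signalling chain Cd79a differed by 0.81 ± 0.44, the surface marker Ms4a1 (CD20) by 0.76 ± 0.42 and the lineage factor Ebf1 by 0.67 ± 0.36, all 3 with no overlap. All 9 genes of major histocompatibility complex class II had a higher mean (median 0.58), led by the invariant chain Cd74 at 0.75 ± 0.47. Both list medians were larger within slide 4 (1.08 and 1.01) than within slide 3 (0.59 and 0.69). So was the median of genes with a symbol, at 0.50 within slide 4 and 0.14 within slide 3. With the platelet level as a covariate the list medians were 0.24 and 0.09.

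Classical monocyte genes had a median of 0.54, and 4 of 12 were higher without overlap (33.3%, against 25.3% of genes with a symbol). That median was 0.57 within slide 3 and 0.12 within slide 4, where genes with a symbol had 0.14 and 0.50. With the platelet level as a covariate it was 0.19, and with the intergenic signal 0.18. Lyz2 (lysozyme) differed by 1.04 ± 0.61, the protease Ctss by 0.74 ± 0.46 and fibronectin, Fn1, by 0.78 ± 0.61, these 3 with no overlap. Patrolling monocyte genes had a median of -0.19 (-0.45 without serum replicate 3 and -0.0038 without serum replicate 1). It was -0.62 within slide 3 and 0.43 within slide 4, both below the medians of genes with a symbol there (0.14 and 0.50). Cd36, the fatty acid and thrombospondin receptor, differed by -0.92 ± 0.70. T cell genes had a median of 0.11, below that of all genes with a symbol, and Cd4 and Cd8b1 differed by -0.26 ± 0.26 and -0.19 ± 0.23. The T cell median was -0.19 without serum replicate 3, 0.29 without serum replicate 1, -0.31 within slide 3 and 0.76 within slide 4. NK and cytotoxic genes had a median of -0.14, which was 0.19 within slide 3 and 0.11 within slide 4. These lay above the median of genes with a symbol in slide 3 (0.14) and below it in slide 4 (0.50). The NK median was 0.01 without serum replicate 1 and -0.32 without serum replicate 3, with Ncr1 at -0.28 ± 0.35 and perforin, Prf1, at -0.27 ± 0.33. Neutrophil genes were lower in 16 of 18 cases with a median of -0.37, and none of them separated the groups. The median was -0.08 without serum replicate 3 and -0.61 without serum replicate 1. Ly6g differed by -0.73 ± 0.52, Cxcr2, the receptor for neutrophil chemokines, by -0.82 ± 0.74, and S100a9, a subunit of calprotectin, had levels of 10.19, 11.16 and 11.17 and 10.77, 9.14 and 10.71. Oleic acid replicate 2 was the lowest array for S100a9 and serum replicate 1 the second lowest. In the dendritic cell list, 8 of 10 detected genes had a higher mean, and the median was 0.40. Without overlap 1 was higher and 1 lower (10% each, against 25.3% and 5.44% of genes with a symbol). The lower one was Zbtb46, a factor of classical dendritic cells, with levels of 2.37, 3.52 and 2.33 after serum and 0.71, 0.30 and 1.00 after oleic acid, a difference of -2.07 ± 0.73. The higher one was Tcf4, which plasmacytoid dendritic cells need, at 0.86 ± 0.38. The homing receptor Cxcr4, which glucocorticoids also induce, differed by 1.03 ± 0.46 with no overlap, but by 0.19 within slide 3 and 0.83 within slide 4. The glucocorticoid-responsive list had a median of 0.28, with 2 of 10 genes higher without overlap (20%, against 25.3% of genes with a symbol).

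The median of interferon-stimulated genes was 0.46 over 21 genes and 0.29 without oleic acid replicate 2. It was 1.06 within slide 3, which holds oleic acid replicate 2, and 0.02 within slide 4. Gbp2, a guanylate-binding protein, had levels of 2.73, 2.56 and 2.78 after serum and 3.55, 5.51 and 2.69 after oleic acid. Ifit2 differed by 1.19 ± 0.50 and Stat2, a subunit of the interferon-activated factor, by 0.72 ± 0.35, both with no overlap. In the whole list 9 genes were higher without overlap (42.9%, against 25.3% of genes with a symbol). Another 4 had a lower mean, 2 of them without overlap (9.52%, against 5.44%), and the lowest difference was -1.01.

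Among lists of cell stress, that of the unfolded protein response had the most members apart from the controls. All 16 of its genes had a higher mean, 11 without overlap (68.8%, against 25.3% of genes with a symbol), with a median of 0.46. That median was 0.02 with the platelet level and 0.13 with the intergenic signal as a covariate. Hspa5, the main chaperone of the endoplasmic reticulum, had levels of 4.11, 4.14 and 4.14 and 4.80, 4.84 and 4.68, a difference of 0.64 ± 0.38. Dnajb9, its cochaperone, differed by 0.83 ± 0.38 and Edem1, which sends misfolded proteins to degradation, by 0.68 ± 0.36. The heat shock list had a median of 0.46 (0.10 and 0.16 with these covariates). Of its 12 genes, 7 were higher without overlap (58.3%, against 25.3%), among them the mitochondrial cochaperone Hspe1 (0.54 ± 0.38). In the integrated stress response list, whose median was 0.11 (-0.0038 to 0.22 leaving out 1 array, lowest without oleic acid replicate 3), Atf5 differed by 1.00 ± 0.38. Its upstream factor Atf4, with 1 treated array missing because its spot was marked as an outlier, differed by 0.66 ± 0.42. The p53 targets Cdkn1a, an inhibitor of the cell cycle, and Pmaip1, a promoter of apoptosis, differed by 1.09 ± 0.50 and 1.23 ± 0.57, both with no overlap. Their list of p53 and apoptosis genes had a median of 0.29 over 12 genes, 3 of them with a lower mean. Of the 12, 4 were higher without overlap (33.3%, against 25.3%). The list median was -0.08 with the platelet level and -0.0022 with the intergenic signal as a covariate. Slc2a3, a glucose transporter of platelets and leukocytes, differed by 1.18 ± 0.57, and by -0.33 with the platelet level as a covariate. Large housekeeping complexes had medians near that of genes with a symbol: cytosolic ribosomal proteins at 0.19, subunits of oxidative phosphorylation at 0.35 and the proteasome at 0.38. Higher without overlap were 5 of 81 (6.17%), 29 of 78 (37.2%) and 14 of 37 (37.8%) of them, against 25.3% of genes with a symbol. Cell cycle genes had a median of 0.38, with 3 of 20 higher (15%, against 25.3%) and 1 lower (5%, against 5.44%) without overlap. Over the 5 scalings the sign of the median turned for 9 of the 46 lists, which were cytosolic ribosomal proteins (-0.029 to 0.41), the integrated stress response (-0.10 to 0.18), T cell genes (-0.12 to 0.27), cytokines (-0.21 to 0.079), fatty acid uptake and sensing (-0.31 to 0.072), coagulation and fibrinolysis (-0.028 to 0.22), lung epithelium (-0.014 to 0.26), Toll-like receptors and the inflammasome (-0.0093 to 0.21) and the sodium-potassium pump (-0.00021 to 0.47).

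Since the agent is itself a fatty acid, genes that sense, take up, store and burn fatty acids were listed separately. The lipid droplet coat Plin2, an early target of fatty acids through PPAR, had levels of 2.48, 2.21 and 1.55 after serum and 2.76, 2.33 and 1.89 after oleic acid, a difference of 0.25 ± 0.46 that is not larger than the spread between mice. Cpt1a, which carries fatty acids into mitochondria, differed by 0.23 ± 0.42, and its sign turned with quantile normalization (-0.01). Pdk4, another PPAR target, was not detected on enough arrays. The PPAR list had a median of -0.12 over 15 genes, with no settled sign: it was 0.10 without oleic acid replicate 2, -0.33 without serum replicate 3, -0.42 within slide 3 and 0.07 within slide 4. Both slide values lay below the medians of genes with a symbol there (0.14 and 0.50). Plin4, a droplet coat protein above background on 3 serum arrays and 1 oleic acid array, differed by -1.39 ± 0.61. Of 17 genes for fatty acid uptake and sensing, 8 had a higher and 9 a lower mean, with a median of -0.09 (0.19 without oleic acid replicate 2). In each direction 3 were without overlap (17.6%, against 25.3% higher and 5.44% lower of genes with a symbol). Among the lower ones without overlap were the fatty acid transporters Slc27a4 and Slc27a1, with levels of 0.72, 0.68 and 0.31 after serum and -0.23, -1.07 and -0.01 after oleic acid for the former and a difference of -1.04 ± 0.52 for the latter. Enzymes of mitochondrial fatty acid oxidation had a median of 0.37 (0.12 without serum replicate 3 and -0.08 with the platelet covariate), with 18 of 19 higher and 6 without overlap (31.6%), close to the 25.3% of genes with a symbol. Atp1b1, a beta chain of the sodium pump, had levels of 1.84, 1.54 and 1.24 after serum and 2.15, 1.90 and 2.33 after oleic acid, a difference of 0.59 ± 0.38 with no overlap. It was the only 1 of 5 detected pump genes that was higher without overlap (20%, against 25.3% of genes with a symbol). Its difference was 0.36 within slide 3 and 1.09 within slide 4. With the platelet level as a covariate it was 0.25, and with the intergenic signal 0.26.

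Many markers of lung and vessel cells were not detected. Of 17 lung epithelial genes, 10 were not detected on enough arrays, surfactant genes Sftpa1, Sftpb and Sftpc among them, and of 15 endothelial genes 10 were not. Of the endothelial genes that were, Plvap, the diaphragm protein of fenestrated vessels, differed by 1.51 ± 0.54 and had levels of -0.24, -0.65 and -1.27 after serum and 0.13, 1.57 and 0.67 after oleic acid, while the growth factor receptor Kdr differed by -0.75 ± 0.51. The defining endothelial genes Cdh5, Tek and Cldn5 were among those not detected.

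**Figure D3:**
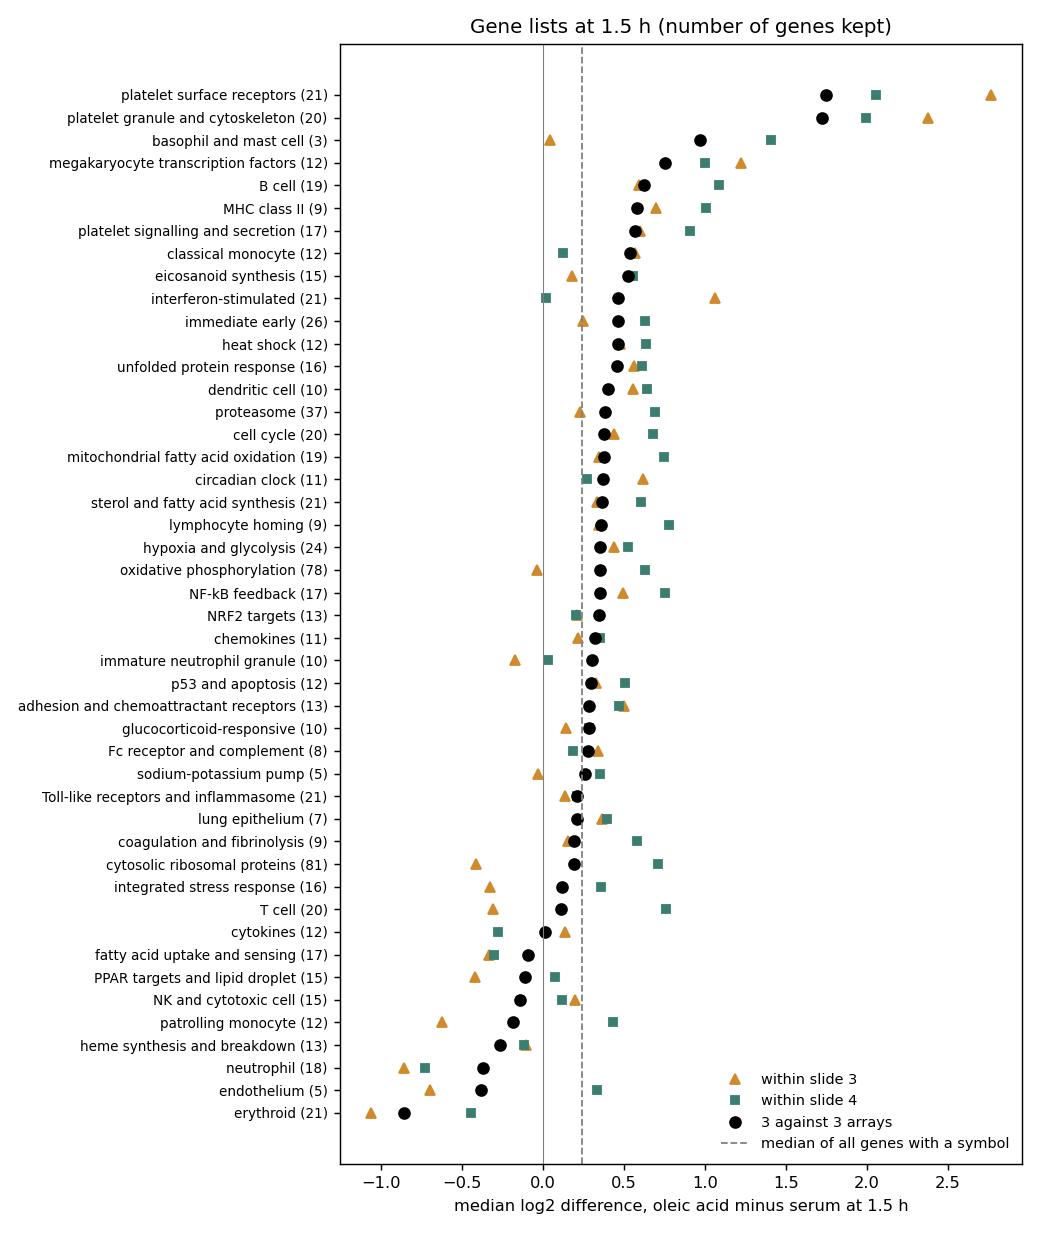
Median log2 difference, oleic acid minus serum at 1.5 h (horizontal axis), for each of the 46 gene lists (vertical axis, number of detected genes in brackets); black points use all 6 arrays, triangles and squares the pairs of arrays on slides 3 and 4, and the dashed line is the median of all genes with a symbol. The platelet receptor and granule lists lie at 1.75 and 1.72 and the erythroid list at -0.86, with the same sign in both slide pairs.

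Genes were also taken by the size of their evidence, as the 12 higher and 12 lower genes of smallest p. They came from genes with a symbol that were above background on all 6 arrays and without overlap. None of them had the lowest adjusted p over all genes (0.145 in limma's fit). Nmral1, a sensor of NADPH, led the higher ones with levels of -1.41, -1.64 and -0.97 after serum and 0.17, 0.06 and 0.11 after oleic acid, a difference of 1.45 ± 0.31 (adjusted p = 0.481). The 3 treated mice were nearly equal, and the difference was 0.52 with normexp and 0.75 on its other probe. Next to Atf3, Ccl2, Slc6a4 and Itgb3, already described, stood Tubb2b, a beta tubulin (1.90 ± 0.49, or 1.14 as the median of its probes), Serpinb6a, a protease inhibitor (1.92 ± 0.54), Capn3, a calpain (2.09 ± 0.60), Clca3a1 (2.07 ± 0.57, a gene with near-identical copies and so uncertain), Pgap4 (2.10 ± 0.61) and 1110046J04Rik (2.59 ± 0.68). Flt1, a receptor for vascular endothelial growth factor, differed by 1.53 ± 0.41 on its brighter probe and by -0.39 on the other. With the platelet level as a covariate, Capn3 differed by 0.49, Pgap4 by 0.53, Serpinb6a by 0.54, Slc6a4 by 0.58 and Tubb2b by 0.84. In that fit Clca3a1 and Flt1 differed by 0.96, 1110046J04Rik by 1.00 and Nmral1 by 1.22.

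Diaph3, a formin that nucleates actin, had the smallest p among the 12 lower genes taken this way. Its levels were 2.13, 2.73 and 2.18 after serum and 0.10, -0.27 and 0.42 after oleic acid, a difference of -2.26 ± 0.58 (4.8-fold lower, limma adjusted p = 0.481). Ube2l6, an ubiquitin-carrier enzyme induced by interferon, had levels of 8.05, 8.08 and 7.86 after serum and 6.09, 6.03 and 6.06 after oleic acid, a difference of -1.94 ± 0.61. Besides Hmox1, the other lower genes were Wdr62, a spindle protein (-2.44 ± 0.76, and -0.07 on its other probe), Slc6a20a, an amino acid transporter (-2.43 ± 0.77), Map1a, a microtubule protein (-2.24 ± 0.67), Gja3, a lens connexin (-2.20 ± 0.67), Shisa9 (-2.13 ± 0.66), Pla2g1b, the pancreatic phospholipase (-2.06 ± 0.65), Defa23, a defensin with near-identical copies and so uncertain (-2.15 ± 0.68), Ripply2 (-1.48 ± 0.44) and 1700003F12Rik (-2.31 ± 0.72). Oleic acid replicate 2 was the lowest array for 11 of these 12 genes, all but Hmox1. Probes for long intergenic RNAs had lower levels too: 1997 of 2639 detected ones had a lower mean after oleic acid, against 38.8% of all genes. Their median was -0.56, with -1.05 within slide 3 and -0.02 within slide 4. The medians over all genes were -0.017 within slide 3 and 0.43 within slide 4.

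Of the 19246 genes kept, 27 were above background on all oleic acid arrays and no serum array, and 24 the other way. Each passed the filter on dim probes through 1 group alone, so its direction is not independent of the filter. Of the former with a symbol, Mtss2, a membrane-bending protein, was at least 6.05-fold higher after oleic acid, Ctnnal1, a catenin relative, at least 4.05-fold, Lancl3 at least 3.92-fold and Fam209 at least 2.33-fold. The reverse genes were 1810053B23Rik, Cdh10, Cytl1, Azin2 and Cyp19a1, at least 3.62-, 4.56-, 3.69-, 2.9- and 3.37-fold lower. In Cdh10 the groups overlapped, as oleic acid replicate 1 (-1.76) lay above serum replicate 1 (-2.08). These bounds take the higher of the dim probe's own signal and the lowest signal called above background on each array. They hold for the main processing alone. Over the alternative settings, the smallest log2 differences were 0.88, 0.50, 0.59 and 0.18 for Mtss2, Ctnnal1, Lancl3 and Fam209. For the reverse genes, in the order given, they were -0.61, -0.81, -0.67, -0.50 and -0.70.

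The neighbouring times, 1 h (3 serum and 3 oleic acid arrays) and 3 h (2 serum and 3 oleic acid arrays), share no array with 1.5 h. Across genes, which are not independent replicates, the differences of 1.5 h correlated with those of 1 h at 0.493 and with those of 3 h at 0.442. No gene's difference at 1.5 h was separable from that at 1 h or 3 h at an adjusted p of 0.05 in limma's fit (0 of 19246 each, 0%), and at an unadjusted p under 0.05 there were 426 (2.21%) and 533 (2.77%). The platelet receptor median was 0.41 at 1 h, 1.75 at 1.5 h and 1.24 at 3 h. The erythroid median ran from 0.39 through -0.86 to 0.05, and the neutrophil median from 0.84 through -0.37 to 0.45. No test was made of these medians.

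Among single genes with the smallest p for these contrasts, Ccl2 differed by -0.43 at 1 h and 1.72 at 1.5 h, a gap of 2.15 ± 0.66 (adjusted p = 1). Flt1, Gm6225, Ern1 (the stress sensor IRE1), Nefh (a neurofilament) and Spata32 had gaps of 2.04, 1.65, 1.27, 1.91 and 1.63 against 1 h. Against 3 h, Pparg, the fatty acid receptor PPAR gamma, differed by -0.38 at 1.5 h and 1.63 at 3 h, a gap of -2.01 ± 0.53 (adjusted p = 1). Asph, a hydroxylase, Cdh22, a cadherin, and Nrp2, a semaphorin receptor, had gaps of -2.96, -2.69 and -1.69. Atf3 stood at 0.95, 1.89 and -0.07 at the 3 times.

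**Figure D4:**
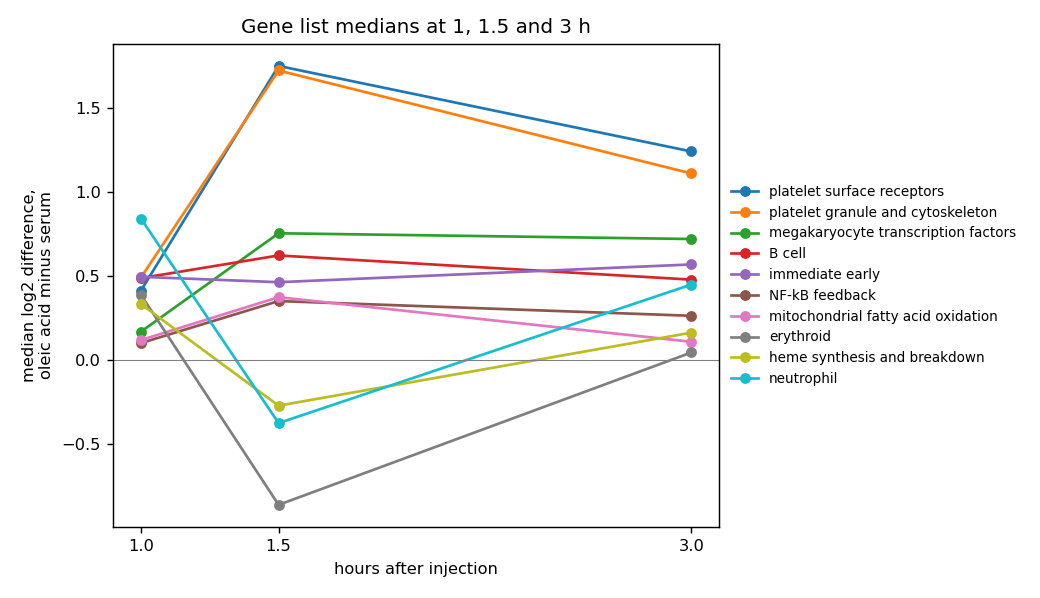
Median log2 difference, oleic acid minus serum (vertical axis), at 1, 1.5 and 3 h after injection (horizontal axis) for 10 gene lists; each point is a median over the detected genes of a list, from separate mice at each time. The platelet lists were highest at 1.5 h (1.75 and 1.72), where the erythroid list was lowest (-0.86).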

How the data were processed

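Blood mononuclear cells of 30 mice were hybridised to 1-colour arrays, read with Agilent Feature Extraction 10.5.1.1 per the file headers. The deposited scanner files give each spot's intensity as a processed signal, which the authors' scanner software had background-subtracted. An authors' table of 62927 rows was used as an alternative: each of its 30 columns matched its own array best, its deposited values were read as log2 from that comparison, medians ran from 5.35 to 5.36, and its background step stays unknown.

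Here the log2 processed signal minus each array's 75th percentile over non-control probes was used, and outlier spots were left out (62 missing values on the 6 arrays). Probes that 3 or more of the 6 arrays measured well above background were kept, and a gene was read by its brightest kept probe. Of 4881 genes with several probes, 1538 had probes that differed in sign. limma 3.58.1 in R 4.3.3 fitted all 12 groups of time and treatment (18 residual degrees of freedom, lmFit and eBayes), with Benjamini-Hochberg adjustment over 19246 genes. The number of arrays limits the precision. The script was tested on simulated data. Probe names came from RefSeq by accession (26762 probes), symbol (3819), older symbol (639) or the array file (24461). Probe coordinates are mm9 as in the files, and promoters are GRCm38.p6. Exon and UTR annotation of the probes was not used here.

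The comparison, its gene lists and the named genes were chosen with earlier results of these data known. Named were the 12 higher and 12 lower genes of smallest p (with a symbol, above background on all 6 arrays, no overlap), up to 5 in each direction detected in 1 treatment alone, up to 6 members of a list by p, 16 preset genes, and up to 6 of smallest p against 1 h and 3 h. Outside that rule, Cd9, Clec1b, Epor, Fos, Gbp2, Gng11, Gp5, Gp6, Nfe2, P2rx1, Pdgfb, Selp, Slc4a1, Sparc, Treml1 and Tubb1 were named after their values were seen. Some genes that the rule selects are not reported here. Same-numbered serum and oleic acid arrays did not deviate together. Alternatives were other scalings, background corrections, filters, probe rules, slide and replicate blocks, array weights, covariates and leaving out each array.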

Additional observations from a re-analysis of the deposited data

How the results depend on the processing

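Of 135 genes followed through the alternatives, 114 kept their direction in every one of 22 alternative settings run. No gene passed an adjusted p of 0.05 in limma's main fit (1871 at an unadjusted p under 0.05). With array weights 2693 did, but the weights ran from 0.154 to 58.3 and their fit stopped before it converged. With the intergenic signal as a covariate 1 did, and leaving out 1 array gave 0 to 1 (1 without serum replicate 1). Genes with an unadjusted p under 0.05 numbered 2874 with no filter, 3278 with only the 6 arrays, 3745 with slide as a block, 6575 with array weights and 802 with the intergenic covariate. They numbered 705 to 2373 leaving out 1 array, the fewest without oleic acid replicate 2. Same-numbered arrays did not deviate together (correlations of deviations -0.56, -0.13 and -0.19), which cannot settle whether the mice were paired. The replicate block gave 1693 genes at an unadjusted p under 0.05 in the 30-array fit and 1990 in the 6 arrays. Genes higher without overlap numbered 2139 with the median of always-detected probes and 4408 to 6376 leaving out 1 array. Genes lower without overlap numbered 2545 with that scaling, 867 among genes above background on all 6 arrays and 1710 to 2849 leaving out 1 array. The median over all genes was -0.053 with that scaling, 0.082 with quantile normalization, 0.095 with normexp, 0.064 in the authors' values, 0.24 above background on all arrays, -0.17 with no filter, 0.21 with slide as a block, 0.10 with array weights, -0.015 with the intergenic covariate, -0.017 within slide 3, 0.43 within slide 4 and 0.063 to 0.22 leaving out 1 array. Array weights gave 4605 genes differing from 1 h. Leaving out 1 array gave 0 to 2 genes differing from 3 h.

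Differences that turned sign were these. Cpt1a was -0.011 with quantile normalization, -0.034 in the authors' values, -0.061 with array weights, -0.15 with the intergenic covariate, -0.21 with the platelet level as a covariate, -0.22 within slide 3 and -0.18 to 0.44 leaving out 1 array (lowest without serum replicate 3). Plin2 was -0.12 with the intergenic covariate, -0.27 with the platelet covariate and -0.019 to 0.47 leaving out 1 array (lowest without serum replicate 3). With the platelet covariate, chosen after the data were seen, Tbxas1 was -0.17, Fos -2.5e-05, Ifit2 -0.0029, Lyz2 -0.0905, Ndrg1 -0.056, Slc2a3 -0.33, Epor -0.63 and Edem1 -0.092. With the median of a gene's probes Tbxas1 was -0.15 and Nefh -0.029. Spata32 was -0.065 with normexp. Leaving out 1 array, Epor ran from -0.022 (without oleic acid replicate 2) to 0.86, and Sparc from -0.55 to 0.099 (without oleic acid replicate 3). Within slide 3, Cxcl2 was -1.21, Ncr1 0.26, Prf1 0.24, Spata32 -0.22 and Ern1 -0.076. Within slide 4, Pdgfb was 0.0504, Cd4 0.56, Cd8b1 0.47, Epor -0.23 and Gbp2 -0.0902. The cause of these changes was not tested. Dim probes such as those of Maff and Egr2 are limited by their signal over background.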
